A study of Mus musculus with 12 samples.

Results

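The glycolytic enzymes of muscle were described through 10 genes given by symbol: Hk2, Pfkm, Pfkfb1, Pfkfb3, Aldoa, Pgk1, Pgam2, Eno3, Pkm and Ldha. All probes that the platform annotation assigned to these symbols were taken from the table of intensities that had not been normalized. The annotation named 13 probes for 8 of the 10 genes, among 34885 probes with 1 gene symbol and 45281 probes in all. Hk2 is the main insulin-regulated hexokinase of muscle, and Pfkfb1 a bifunctional enzyme best known from liver and muscle. Neither carried a probe with its symbol, so the level of neither was measured here. Their upstream sequences are counted below with those of the other members. Of the 13 probes 10 were detected, and the 8 genes stood among 10575 genes tested.

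RNA from the lower abdominal muscle of male FVB/N mice aged 1 month was hybridised to Illumina mouse bead arrays, which read biotin-labelled cRNA in 1 colour. The 12 arrays fell into 3 groups of 4: AromhumH and AromhumL, both transgenic for humanized aromatase, and wild type (WT) mice as the control. Aromatase is the enzyme that turns androgens into oestrogens. By the labels its human form was more highly expressed in AromhumH than in AromhumL. The series asked what a move from androgen to oestrogen action does to this muscle. All groups shared strain, sex, age and tissue, and the sources used here name neither promoter nor copy number of the transgene. Whether replicates were different animals is not stated, so the p-values reflect only the spread between these arrays, part of which may be technical.

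Glycolysis splits glucose to pyruvate and yields ATP without oxygen, and fast muscle fibres depend on it for short, intense work. Phosphofructokinase is the main control step, and the enzymes of the Pfkfb family make and remove the sugar bisphosphate that activates it. The later steps run through aldolase, phosphoglycerate kinase, phosphoglycerate mutase, enolase, pyruvate kinase and lactate dehydrogenase, several of which have a form made chiefly in muscle.

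AromhumH arrays had a mean raw intensity of 334.7 ± 31.6, AromhumL arrays one of 259.0 ± 25 and WT arrays one of 317.9 ± 49.9 (SD over 4 arrays each). Between 17198 and 18867 probes were detected per array, and correlations between arrays of 1 group ran from 0.976 to 0.988. The fibre markers Ckm, Acta1, Myh4 and Tnnt3 were detected on 12 of 12 arrays with group means of 14.2 or more on the normalized log2 scale, so the defining markers of the labelled tissue were present. Levels are normalized log2 intensities, changes are differences of group means on that scale, and adjusted p-values come from limma over all 10575 genes unless stated.

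Of the 8 measured enzymes 0 passed an adjusted p under 0.05 in AromhumH versus WT and 0 in AromhumL versus WT, and 1, Pfkfb3, fell in AromhumH relative to AromhumL. Over all genes the shares called were 1.18%, 0% and 6.03%, so 1 call among 8 genes is read as a result on Pfkfb3 and not on the set. At an unadjusted p under 0.05 Pgk1 was the 1 member in AromhumH versus WT, where 16.7% of all genes passed, and Pfkfb3 the 1 member in AromhumL versus WT, where 8.37% did. On their brightest probes the 7 other members differed between groups by at most 0.30 on the log2 scale in any comparison.

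The upstream sequences of Pfkfb3 and Pgam2 are shown because Pfkfb3 was the member that differed between the transgenic groups and Pgam2 the member whose AromhumH arrays all lay below the WT arrays. These are the 250 bases before a listed start, from RefSeq on GRCm38.p6. Pfkfb3 lies on the minus strand of chromosome 2 at chr2:11471430-11554071 and has 2 listed starts with a window. Their windows are chr2:11553930-11554179, at the 5′ end of the gene, and chr2:11502091-11502340, inside it. Pgam2 lies on the minus strand at chr11:5801637-5803796, with its window at chr11:5803797-5804046. Sequences run 5′ to 3′ on the gene's strand. In the windows of Pfkfb3 the capitals mark ACGTG read on either strand, the core bound by hypoxia-inducible factors and by related basic helix-loop-helix factors. In the window of Pgam2 they mark CANNTG, the E-box bound by myogenic factors.
Pfkfb3 distal start: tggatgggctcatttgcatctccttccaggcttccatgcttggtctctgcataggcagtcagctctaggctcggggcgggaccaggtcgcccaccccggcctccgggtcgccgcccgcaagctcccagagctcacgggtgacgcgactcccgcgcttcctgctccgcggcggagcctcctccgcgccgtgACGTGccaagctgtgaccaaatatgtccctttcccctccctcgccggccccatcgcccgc
Pfkfb3 internal start: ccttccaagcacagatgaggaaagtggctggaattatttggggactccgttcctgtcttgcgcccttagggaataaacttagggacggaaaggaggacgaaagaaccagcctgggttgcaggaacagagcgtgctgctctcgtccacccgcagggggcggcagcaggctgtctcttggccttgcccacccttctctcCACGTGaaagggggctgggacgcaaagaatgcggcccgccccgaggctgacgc
Pgam2: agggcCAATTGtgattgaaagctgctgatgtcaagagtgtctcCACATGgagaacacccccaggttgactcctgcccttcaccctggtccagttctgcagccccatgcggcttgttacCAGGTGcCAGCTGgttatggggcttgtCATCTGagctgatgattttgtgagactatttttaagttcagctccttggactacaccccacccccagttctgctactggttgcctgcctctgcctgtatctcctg

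The distal window of Pfkfb3 held ACGTG 1 time and the internal window 2 times, the palindrome CACGTG counting once on each strand. ACGTG was present in 16.6% of 32851 windows of this length over all genes, and in 10 of the 21 windows of the members, which belonged to 7 of the 10 genes. The window of Pgam2 held 5 CANNTG matches, all on both strands because the motif is its own reverse complement, and 66.2% of all windows held at least 1. CANNTG was in 18 of the 21 windows of the members. CACGTG falls under both motifs and was counted in each. The palindromic oestrogen response element, GGTCA and TGACC with any 3 bases between, was found in 0 of the 21 windows, against 0.0639% of all windows, which says only that these letters are not there. Some windows of 1 gene overlap, and a match is not a site.

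Pfkfb3, which makes the activator of phosphofructokinase with little of the opposing phosphatase activity, was lower in AromhumH than in AromhumL. Its levels were 4.54, 4.73, 4.72 and 4.71 on the AromhumH arrays, 5.82, 5.21, 5.41 and 5.05 on the AromhumL arrays, and 4.76, 4.81, 4.63 and 4.60 on the WT arrays. On this normalized scale all 4 AromhumL arrays lay above every array of the other groups, while the AromhumH and WT arrays overlapped. The mean of AromhumH was 4.67 ± 0.09, that of AromhumL 5.37 ± 0.33 and that of WT 4.70 ± 0.11 (SD over 4 arrays each).

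In AromhumH versus AromhumL Pfkfb3 fell by 0.70 on the log2 scale (SE 0.152, 95% interval −1.02 to −0.37, limma adjusted p = 0.0215). No fold is given, since the AromhumH values lay at the detection level and raw intensity averaged 90.6 ± 1.9 in AromhumH and 98.1 ± 5 in AromhumL (SD, n = 4). Of all genes 2.01% were called lower in this comparison and 8.05% had AromhumH arrays wholly below the AromhumL arrays. In AromhumL versus WT its change was 0.67 (SE 0.152, 95% interval 0.35 to 1.00), which missed the threshold at a limma adjusted p of 0.57, although its p ranked 3 among 10575 genes and 2.55% of genes had all AromhumL arrays above all WT arrays. The 2 transgenic groups thus stood apart, whereas AromhumH and WT differed by −0.03 (SE 0.152, adjusted p = 0.965). The 2 comparisons that include AromhumL use the same 4 AromhumL arrays.

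The probe of Pfkfb3 was dim. Its raw intensities were 89.3, 91.2, 93.1 and 88.8 in AromhumH, 97.2, 100.6, 103.1 and 91.6 in AromhumL, and 86.5, 93.8, 91.3 and 92.2 in WT. The probe was detected on 3 AromhumH, 4 AromhumL and 3 WT arrays. Detection p-values were 0.0246 to 0.0726 in AromhumH, 0.00107 to 0.0182 in AromhumL and 0.0214 to 0.0609 in WT. Relative to the level at which a probe counts as detected, it lay at −0.07 to 0.13 in AromhumH, 0.32 to 1.11 in AromhumL and −0.05 to 0.15 in WT on the log2 scale. The AromhumH and WT values thus lay at that level and the AromhumL values above it.

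The call for Pfkfb3 in AromhumH versus AromhumL held in 8 of the 12 fits made without 1 array, with changes of −0.82 to −0.56. It was lost without AromhumH 1 (adjusted p = 0.0643), AromhumH 2 (0.052), AromhumH 4 (0.0629) or AromhumL 1 (0.0704). AromhumL was also the dimmest group in mean raw intensity, and with array brightness as a covariate the change was −0.41 (SE 0.19, limma adjusted p = 0.627) and that of AromhumL versus WT 0.45 (adjusted p = 1). On the authors' processed values the change was −0.13 (adjusted p = 0.0725) and with no background correction −0.25 (adjusted p = 0.0551). Whether brightness accounts for the difference was not tested.

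**Figure D1:**
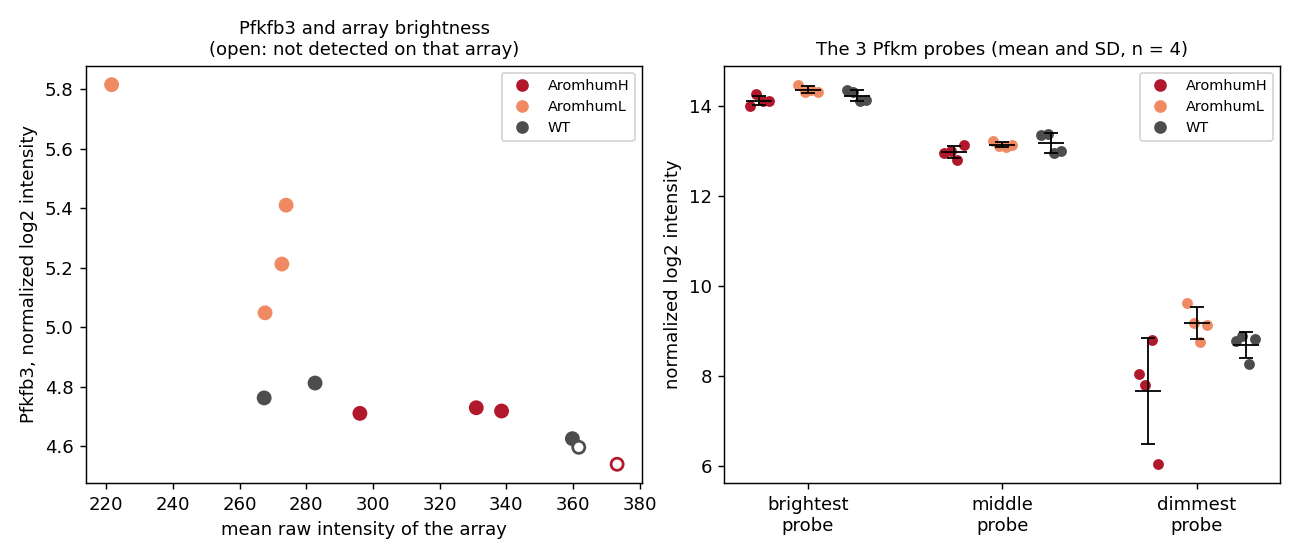
Left, normalized log2 intensity of Pfkfb3 against the mean raw intensity of each array, with open points where the probe was not detected, and right, the 3 Pfkm probes per array with group mean and SD. The 4 AromhumL arrays lie above all others for Pfkfb3, and the dimmest Pfkm probe has its lowest value, 6.05, in AromhumH.

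Pfkm, the muscle subunit of phosphofructokinase (chr15:98092589-98132447), carried 3 probes detected on 12 of 12 arrays. The brightest read 14.01, 14.27, 14.13 and 14.13 in AromhumH, 14.48, 14.33, 14.36 and 14.32 in AromhumL and 14.36, 14.31, 14.13 and 14.14 in WT. All AromhumH arrays lay below all AromhumL arrays, as they did for 8.05% of all genes, and WT overlapped with both. The differences were −0.24 in AromhumH versus AromhumL (SE 0.117, 95% interval −0.49 to 0.01, limma adjusted p = 0.214), −0.10 in AromhumH versus WT (adjusted p = 0.71) and 0.14 in AromhumL versus WT (adjusted p = 0.734).

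The middle probe of Pfkm averaged 12.98 ± 0.14 on AromhumH arrays, 13.15 ± 0.06 on AromhumL arrays and 13.18 ± 0.23 on WT arrays (SD, n = 4), with no difference past the threshold (limma adjusted p = 0.487 to 0.958 in the probe-level fit). The dimmest probe read 8.04, 7.80, 8.82 and 6.05 in AromhumH, 9.63, 9.18, 8.77 and 9.15 in AromhumL and 8.80, 8.90, 8.27 and 8.83 in WT. AromhumH 3 overlapped with AromhumL, while AromhumH 4 was the lowest by far. In the probe-level fit, where 0.898%, 0% and 5.23% of 16264 named probes passed in AromhumH versus WT, AromhumL versus WT and AromhumH versus AromhumL, it fell by 1.51 in AromhumH versus AromhumL (SE 0.40, limma adjusted p = 0.0411).

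That change of the dimmest probe held in 6 of the 12 fits made without 1 array, and it was −0.96 without AromhumH 4 (adjusted p = 0.0715). It also failed without AromhumH 1 (adjusted p = 0.0675), AromhumH 2 (0.0816), AromhumL 1 (0.12), AromhumL 2 (0.0747) and AromhumL 4 (0.0788). With array brightness as a covariate the change was −1.66 (adjusted p = 0.533), on the authors' processed values −0.97 (0.0692) and with no background correction −1.19 (0.0573). The mean of the 3 probes, an alternative to the brightest, differed by −0.64 (SE 0.163, limma adjusted p = 0.0386). The 3 probes thus gave changes of −0.24, −0.16 and −1.51 in the main fit, and which transcripts each reads was not tested. With array brightness as a covariate the brightest probe stood at −0.06 (limma adjusted p = 0.944) and the middle one at 0.12 (0.879). A fall on these probes thus depended on that setting. Raw intensity of the brightest probe averaged 19659.3 in AromhumH and 17176.3 in AromhumL.

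Aldoa (chr7:126795234-126800994), the aldolase of muscle, averaged 14.56 ± 0.05 on AromhumH arrays, 14.58 ± 0.05 on AromhumL arrays and 14.58 ± 0.07 on WT arrays (SD, n = 4). Single arrays read 14.49 to 14.62 in AromhumH, 14.52 to 14.64 in AromhumL and 14.49 to 14.64 in WT, so the groups overlapped and all 12 arrays lay within 0.15 log2 units. Its changes were −0.02 in AromhumH versus WT, −0.003 in AromhumL versus WT and −0.02 in AromhumH versus AromhumL (limma adjusted p = 0.946 to 0.995). From 2 to 14 of the 45281 probes were brighter on an array. Quantile normalization assigns the same value to the same rank on every array, so such a narrow span at the top of the range is limited in what it can show.

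Pgk1, which makes ATP from bisphosphoglycerate (chrX:106187100-106203699), had the lowest change of the 8 members in AromhumH versus WT. Its detected probe read 12.86, 13.10, 13.00 and 12.96 in AromhumH, 13.09, 12.81, 13.00 and 13.23 in AromhumL and 13.24, 13.02, 13.27 and 13.61 in WT. The groups overlapped, with WT 4 the highest array of all. The change was −0.30 (SE 0.142, 95% interval −0.61 to 0.00, limma adjusted p = 0.298), and it stayed between −0.39 and −0.19 on leaving out 1 array. Of its other probes 1 was detected on 3 of 12 arrays and 1 on 0.

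Pgam2 (chr11:5801637-5803796), the muscle form of phosphoglycerate mutase, read 13.55, 13.49, 13.56 and 13.54 in AromhumH, 13.74, 13.77, 13.76 and 13.55 in AromhumL and 13.60, 13.80, 13.59 and 13.57 in WT. All AromhumH arrays lay below all WT arrays, by a small margin, as did 3.33% of all genes. Its change was −0.10 in AromhumH versus WT (SE 0.113, limma adjusted p = 0.703), 0.06 in AromhumL versus WT (adjusted p = 0.892) and −0.17 in AromhumH versus AromhumL (adjusted p = 0.392).

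Eno3, the muscle enolase (chr11:70653125-70662513), averaged 14.44 ± 0.005 on AromhumH arrays, 14.47 ± 0.07 on AromhumL arrays and 14.52 ± 0.06 on WT arrays (SD, n = 4). Pkm, pyruvate kinase (chr9:59656576-59679372), averaged 13.92 ± 0.14 for AromhumH, 13.90 ± 0.05 for AromhumL and 13.98 ± 0.12 for WT. Ldha, the lactate dehydrogenase subunit of anaerobic muscle (chr7:46842274-46855627), averaged 14.11 ± 0.06 for AromhumH, 14.13 ± 0.03 for AromhumL and 14.18 ± 0.03 for WT. The arrays of the groups overlapped for each of these enzymes. Single arrays of Eno3 read 14.44 to 14.45 in AromhumH, 14.36 to 14.53 in AromhumL and 14.44 to 14.57 in WT. As for Aldoa, these values are set by rank, with 6 to 31 probes brighter on an array and 19 or 20 on every AromhumH array, whose raw intensities of Eno3 ran from 23064.6 to 27959.1. Those of Pkm read 13.74 to 14.07 in AromhumH, 13.83 to 13.95 in AromhumL and 13.82 to 14.10 in WT. The differences of these 3 genes lay between −0.08 and 0.03, with limma adjusted p-values from 0.793 to 0.958. The second probe of Pkm was detected on 3 of 12 arrays and was not tested.

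**Figure D2:**
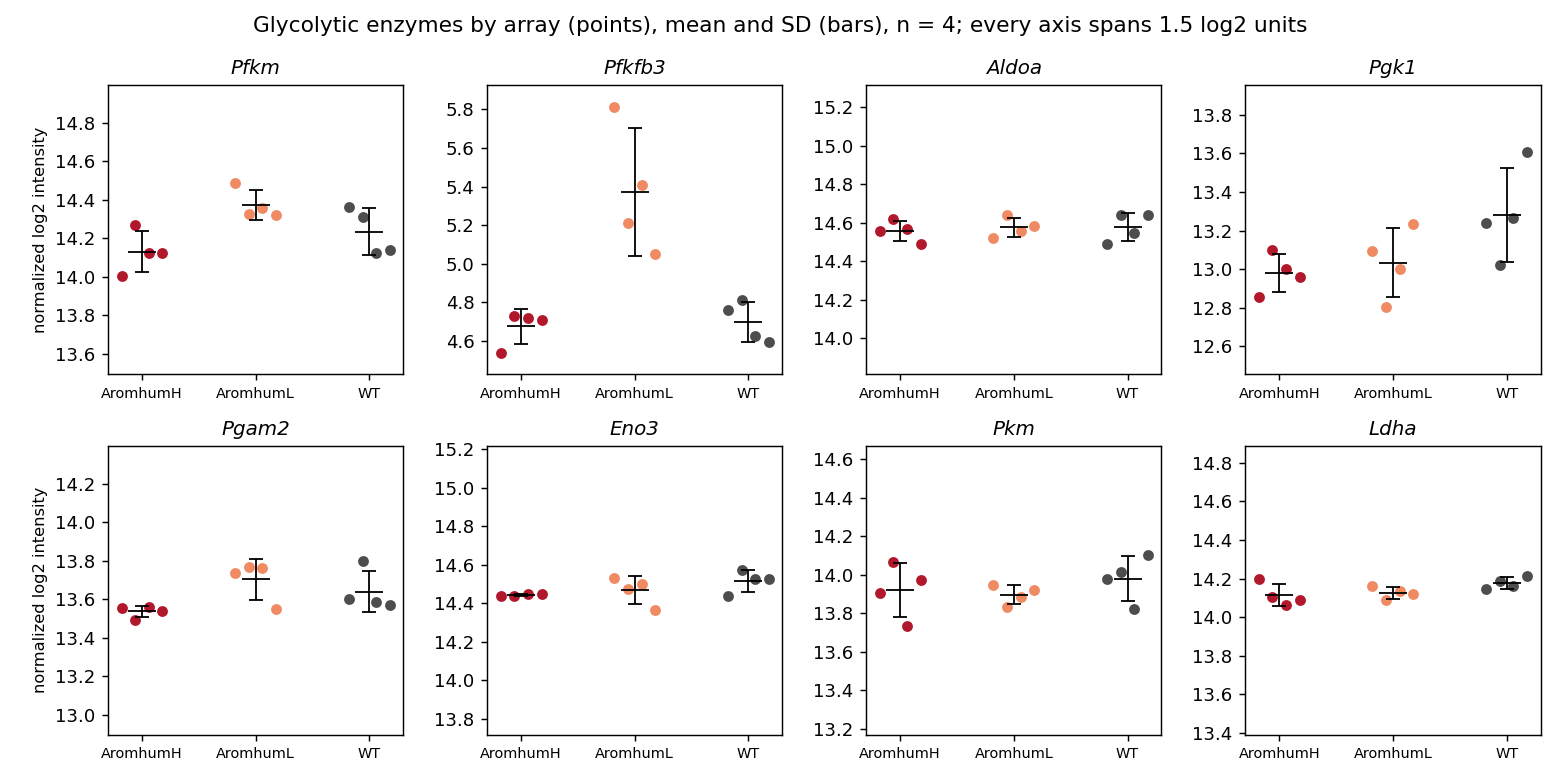
Normalized log2 intensity of the brightest probe of each of the 8 measured enzymes on each array of AromhumH, AromhumL and WT, with group mean and SD (n = 4), every axis spanning 1.5 log2 units. The arrays of most enzymes interleave, and Pfkfb3 is the 1 member with all 4 AromhumL arrays above every array of the other groups.

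In AromhumH versus WT all 8 members had a change below 0, with a median of −0.07 and a range of −0.30 to −0.02, beside a median of 0.01 over all genes and 49% of genes below 0. Apart from Pgk1, each of these changes was smaller than its SE, so their shared sign shows little. With median scaling in place of quantile normalization Aldoa stood at 0.05 and Eno3 at 0.01, so their direction depended on the scaling. With array brightness as a covariate Pfkfb3 stood at 0.04. In AromhumL versus WT 3 were above 0 and 5 below (median −0.03, range −0.25 to 0.67), where 48.7% of all genes were below 0, and in AromhumH versus AromhumL 1 was above and 7 below (median −0.04, range −0.70 to 0.03), where 50.5% were.

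**Figure D3:**
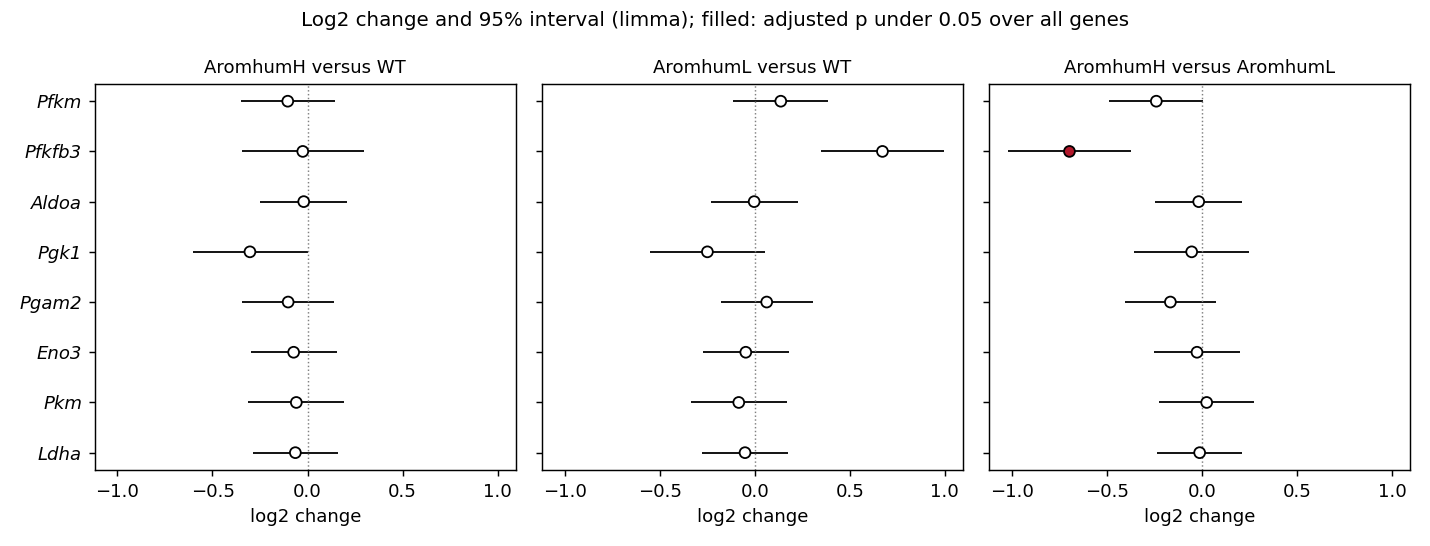
Log2 change of each measured enzyme with its 95% interval, in AromhumH versus WT, AromhumL versus WT and AromhumH versus AromhumL. The interval of Pfkfb3 lies wholly above 0 in AromhumL versus WT and wholly below 0 in AromhumH versus AromhumL.

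Across the 12 arrays the level of 2 of the 8 members moved with the raw brightness of the array, over a family of 8 correlations. How many of all genes did so was not counted, so this is not read as a trait of these enzymes. Pfkm had r = −0.908 (permutation adjusted p = 0.00072, 100000 resamples) and Spearman rho = −0.901 (adjusted p = 0.00128), and −0.828 without the 2 arrays farthest from the median brightness. Pfkfb3 had r = −0.845 (adjusted p = 0.00056), rho = −0.881 (adjusted p = 0.00128) and −0.699 without those arrays. With the group means removed the values were −0.834 and −0.668. AromhumL was the dimmest group, so the brightness of an array and its group are partly the same. The permutations shuffled all 12 arrays without regard to group, so their p-values do not separate brightness from group. For the other 6 members r was −0.59 to 0.26 (permutation adjusted p = 0.121 to 0.935).

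Among the 28 pairs of members Pearson's r ran from −0.324 to 0.818 with a median of 0.156, and 1 pair passed an adjusted p under 0.05. That pair was Pfkm and Pfkfb3 (r = 0.818, permutation adjusted p = 0.012, rho = 0.88, adjusted p = 0.00924), the pair that also moved with array brightness. Its r was 0.699 without the 2 farthest arrays and 0.689 with group means removed. Here too the permutations took no account of group. The share of all gene pairs with such an r was not counted, so the pair is not read as a link between these genes. Pfkm and Pfkfb3 each had a higher r with a gene outside the members. The gene most like each member over the 12 arrays, as a description, was Pde4b for Pfkm (r = 0.958), Tfb1m for Pfkfb3 (0.873), Dok1 for Aldoa (0.835), Nup133 for Pgk1 (0.932), Mtss1 for Pgam2 (0.89), Hnrnpa3 for Eno3 (0.888), Mtx3 for Pkm (0.855) and Glb1l2 for Ldha (0.919). These arrays share their brightness and their groups.

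Of 41 other genes of glycolysis and pyruvate entry 29 were measured. In AromhumH versus WT 1 passed, Dlat, beside 1.18% of all genes, and the list's median change was −0.16 with 21 of 29 below 0, beside 49% of all genes. In AromhumL versus WT 0 passed, beside 0% of all genes, and the gene with the smallest p was Gpd1, glycerol-3-phosphate dehydrogenase, at −0.51 (SE 0.187, limma adjusted p = 0.592). In AromhumH versus AromhumL 3 of 29 passed, beside 6.03% of all genes. Pdp1, a phosphatase that activates pyruvate dehydrogenase, and Dlat, its E2 subunit, fell, and Pdk3, a kinase that inhibits it, rose. The other measured genes of that complex and its kinases, grouped after their values were seen, did not pass. Pdha1 stood at −0.23, Pdhb at −0.29, Pdk1 at −0.05, Pdk2 at −0.22 and Pdk4 at −0.07 (limma adjusted p = 0.173 to 0.903). Of the other 3 kinases Pdk1 (SE 0.137) and Pdk4 (SE 0.253) had changes smaller than their SE, so their signs show little. In AromhumH versus WT the kinases went both ways and none passed (limma adjusted p = 0.173 to 0.832). There Pdk1 stood at 0.08, Pdk2 at −0.48, Pdk3 at 0.32 and Pdk4 at −0.54.

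Dlat read 8.69, 8.61, 8.81 and 8.71 in AromhumH, 9.18, 9.10, 9.37 and 9.32 in AromhumL and 9.62, 9.17, 9.33 and 9.08 in WT. AromhumH lay below all arrays of both other groups. Of all genes 3.33% had AromhumH wholly below WT and 8.05% wholly below AromhumL. It fell by 0.60 in AromhumH versus WT (SE 0.135, limma adjusted p = 0.0438), a call that held in 2 of the 12 fits made without 1 array: without AromhumH 3 (adjusted p = 0.0378) and without AromhumL 3 (0.0492). The call was also lost with array brightness as a covariate (adjusted p = 0.0669), with median scaling (0.0535), with no detection filter (0.0581) and with only the groups compared in the fit (0.0757). In AromhumH versus AromhumL it fell by 0.54 (limma adjusted p = 0.0322, passing in 6 of those 12 fits), and with array brightness as a covariate the change was −0.44 (adjusted p = 0.613).

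Pdp1 read 6.53, 6.75, 7.23 and 6.70 in AromhumH, 7.67, 7.20, 7.72 and 7.61 in AromhumL and 7.90, 7.47, 7.24 and 7.56 in WT. It fell by 0.75 in AromhumH versus AromhumL (SE 0.179, limma adjusted p = 0.0283), whereas its other probe gave −0.11 (probe-level adjusted p = 0.664). That other probe averaged 4.87 over all arrays, near the detection level, against 7.3 for the probe used. It can thus show little of a fall, and it enters the mean of both probes. AromhumH 3 overlapped with AromhumL. The call was lost with brightness as a covariate (−0.51, adjusted p = 0.635), with the mean of both probes (−0.43, 0.065), on the authors' processed values (−0.36, 0.0554) and with no detection filter (0.0636). Pdk3 read 5.78, 5.57, 5.18 and 5.73 in AromhumH, 4.88, 4.95, 5.27 and 4.90 in AromhumL and 5.05, 5.36, 5.40 and 5.17 in WT. The transgenic groups overlapped through AromhumH 3 and AromhumL 3. The probe of Pdk3 was dim, averaging 5.27 over all arrays, where a probe counted as detected from 4.66 to 4.73 on the AromhumL arrays. In AromhumH versus AromhumL Pdk3 rose by 0.57 (SE 0.153, limma adjusted p = 0.0423), but the call was lost under several settings. The change was 0.34 with median scaling (adjusted p = 0.143), 0.22 with no background correction (0.0757), 0.11 on the authors' processed values (0.0887) and 0.46 with brightness as a covariate (0.633), and with no detection filter the adjusted p was 0.0676. The calls of both genes held in 6 of the 12 fits made without 1 array.

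**Figure D4:**
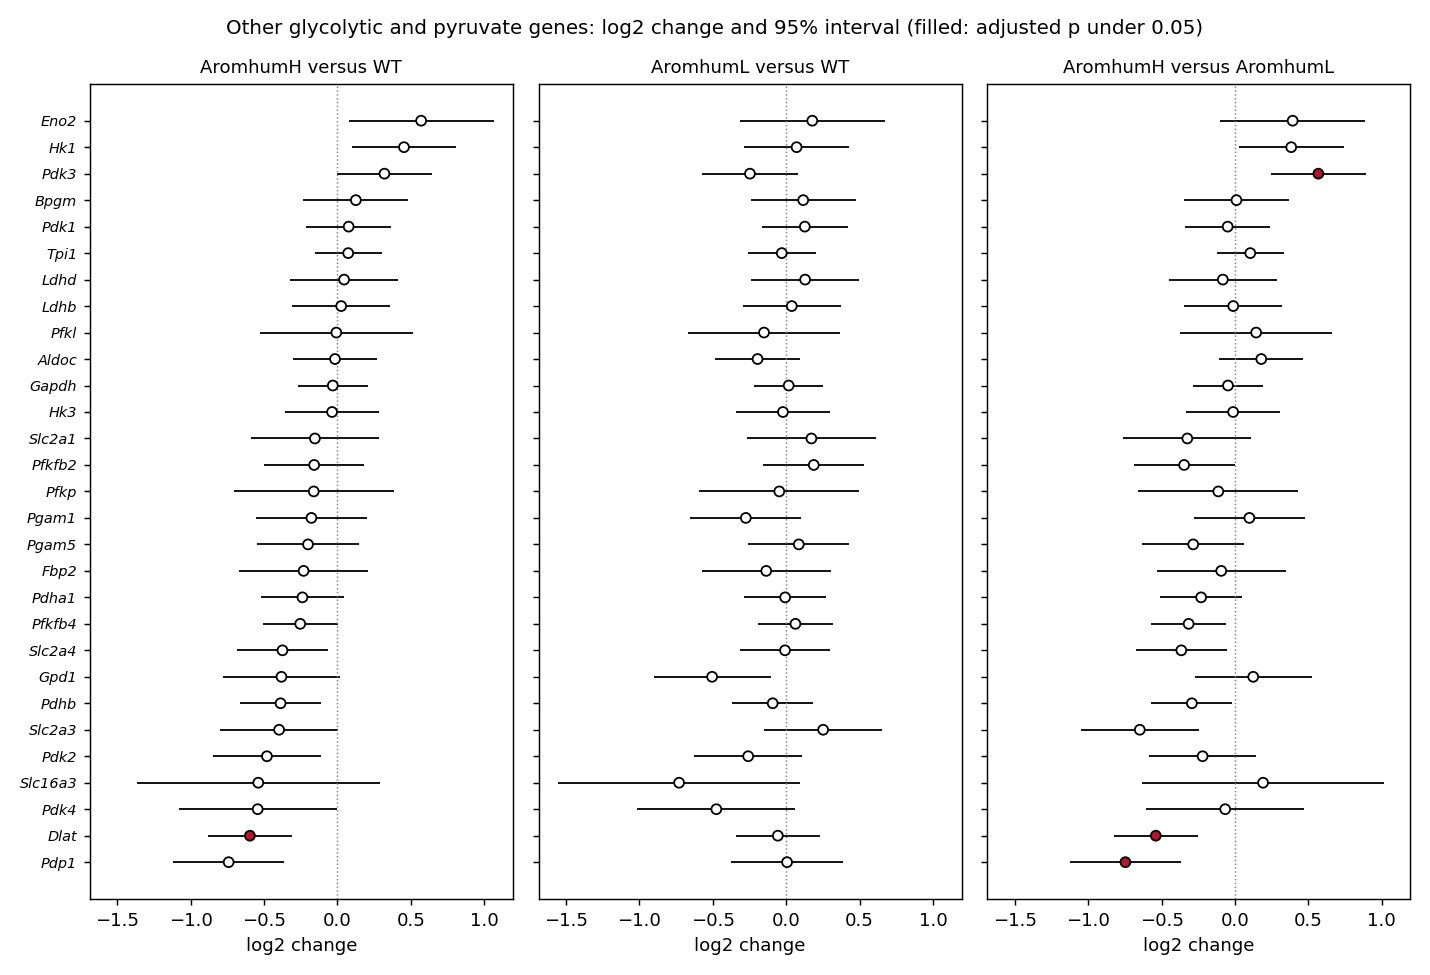
Log2 change with its 95% interval of the 29 measured other genes of glycolysis and pyruvate entry in the 3 comparisons, filled where the adjusted p was under 0.05. Dlat is filled in AromhumH versus WT, and Dlat, Pdp1 and Pdk3 are filled in AromhumH versus AromhumL.

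Markers of other cell types also moved. In AromhumH versus WT, where 1.18% of all genes were called, 4 of 5 mesothelial markers rose (median 1.38). Their mean level relative to the mean of all arrays ran from 0.56 to 1.40 on AromhumH arrays, from −1.04 to 0.08 on AromhumL arrays and from −0.997 to −0.19 on WT arrays. In AromhumH versus AromhumL 4 of 5 rose as well (median 1.497). Of 12 fast-fibre markers 0 passed in AromhumH versus WT (median −0.04), and theirs ran from −0.12 to 0.01 on AromhumH arrays, from −0.01 to 0.07 on AromhumL arrays and from 0.01 to 0.04 on WT arrays. In the comparison with WT 1 of 9 slow-fibre markers rose (6 above 0 and 3 below, median 0.15) and of 7 markers of all fibres 0 changed (median 0.06). Of 9 fibroblast, 5 adipocyte, 6 macrophage and 3 erythroid markers 0 passed, with medians of 0.22, −0.93, 0.39 and 0.11. In AromhumH versus AromhumL, where Pfkfb3 and 6.03% of all genes were called, 1 of 9 fibroblast markers rose (8 of 9 above 0, median 0.38). Of the 9 slow-fibre markers 1 rose (median 0.10), with 5 above 0 and 4 below. Among those below 0, of which 0 were called, the slow myosin Myh7 averaged 7.65 in AromhumH, 8.49 in AromhumL and 8.14 in WT. Among those above 0, Casq2 averaged 8.66 in AromhumH, 7.6 in AromhumL and 7.81 in WT. In this comparison of the transgenic groups 0 of 3 erythroid markers passed (median 0.76). Nor did any of 12 fast-fibre (median −0.01), 7 all-fibre (−0.01), 5 adipocyte (−0.36) or 6 macrophage markers (0.11). In these whole-tissue samples fewer cells of a type and less RNA per cell cannot be told apart, and the part of these cells in the results on the enzymes was not tested.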

How the data were processed

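RNA of lower abdominal muscle was read on 12 Illumina bead arrays, and groups and replicate numbers came from the sample titles. The deposited table gives, per the file headers, linear intensity values for every probe without normalization, and the authors paired each with a detection p-value. A further table of processed values deposited by the authors is, from its range, on a log2 scale. The software behind them is not given in the sources used here.

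Intensities were background-corrected and quantile-normalized with neqc of limma 3.58.1 in R 4.3.3 (offset 16). Probes with a detection p-value under 0.05 on at least 4 of 12 arrays were kept, 19004 in all, and each gene was represented by its brightest named probe. Group means were fitted with lmFit and eBayes, with Benjamini-Hochberg adjustment over 10575 genes, or over 16264 named probes in the probe-level fit, at an adjusted p under 0.05. The fit was tested on simulated data. Log2 changes had a median standard error of 0.16, which the number of arrays limits. Correlations used 100000 permutations in scipy 1.17.1. No arrays held identical values. The labels do not say what a replicate number stands for, so the numbers were not taken to pair samples. Deviations of same-numbered arrays correlated at −0.254 to 0.393, over 0.1 in 2 of 12 pairs.

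The members and gene lists were chosen with earlier results of these data known. The rule for named genes took all members, up to 4 called genes of the other glycolytic list per comparison or else the 1 with the smallest p, and the 1 gene most like each member. Alternatives covered normalization, filter, probe choice, moderation, samples in the fit, array brightness, replicate block and leaving out each array. Median scaling was added after seeing the data.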

Additional observations from a re-analysis of the deposited data

Results flagged for a closer look

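Of 30 groups of 4 arrays checked for single arrays far from the rest, 4 stood out by Dixon's criterion, where chance alone marks about 1 in 20. For Pfkfb3, AromhumH 1 read 4.54 against 4.71 on the nearest other AromhumH array. The probe was not detected on AromhumH 1 (detection p-value 0.0726). Its raw intensity there, 89.3, lay above the 88.8 of AromhumH 4, so the flag holds on the normalized scale only. For Pgam2, AromhumL 4 read 13.55 against 13.74 on the nearest AromhumL array, and WT 2 read 13.80 against 13.60 on the nearest WT array. For the dimmest Pfkm probe, WT 3 read 8.27 against 8.80 on the nearest WT array. Pfkfb3 in AromhumH versus AromhumL was flagged too (−0.70, limma adjusted p = 0.0215), which is the test given above and not a further result. Neither transgenic group passed relative to WT for this gene (adjusted p = 0.965 for AromhumH and 0.57 for AromhumL). The call was lost with array brightness as a covariate (adjusted p = 0.627).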

How the results depend on the processing

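For AromhumH versus WT the count of changed genes was 125. It became 76 with the authors' processed values, 36 with no detection filter, and 69 after adding array brightness to the fit, and it ran from 6 to 311 when 1 array was left out (22 without WT 1, 69 without WT 2, 53 without WT 4, 76 without AromhumH 1, 6 without AromhumH 2, 311 without AromhumH 3 and 19 without AromhumH 4). For AromhumH versus AromhumL it was 638, and 348, 210 and 0 under the same 3 settings. Leaving out 1 array gave 63 to 1052 (118, 113, 1052 and 96 without AromhumH 1 to 4, and 63, 359 and 145 without AromhumL 1, 2 and 4). With median scaling the share of higher among called genes was 39.1%, against 66.6%, and the median of all genes shifted by −0.10. Of the 8 members 1 was called in AromhumH versus AromhumL. It was 0 without background correction (Pfkfb3 at −0.25, limma adjusted p = 0.0551), on the deposited values (−0.13, 0.0725), with brightness as a covariate, and with probes detected on all arrays, where Pfkfb3 was not tested, 2 with the mean of a gene's probes, and 0 to 1 on leaving out 1 array. Both comparisons with WT gave 0 called members throughout.

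Directions near 0 turned. With brightness as a covariate Pfkfb3 stood at 0.041 in AromhumH versus WT, and Pfkm at −0.004 and Aldoa at 0.044 in AromhumL versus WT. With median scaling Aldoa stood at 0.045 and Eno3 at 0.009 in AromhumH versus WT. Aldoa stood at 0.10, Eno3 at 0.027, Pkm at 0.023 and Ldha at 0.063 in AromhumL versus WT, and Pkm at −0.115 in AromhumH versus AromhumL. On leaving out 1 array, AromhumH versus WT ran from −0.058 to 0.020 for Pfkfb3, −0.049 to 0.003 for Aldoa and −0.112 to 0.003 for Pkm. AromhumL versus WT ran from −0.032 to 0.018 for Aldoa. AromhumH versus AromhumL ran from −0.037 to 0.006 for Aldoa, −0.132 to 0.013 for Pgk1, −0.025 to 0.089 for Pkm and −0.038 to 0.003 for Ldha. The cause was not tested.

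With the replicate block the counts of changed genes were 108 in AromhumH versus WT, 0 in AromhumL versus WT and 466 in AromhumH versus AromhumL, and Pfkfb3 stood at −0.70 (limma adjusted p = 0.0336). With this block the adjusted p of Dlat in AromhumH versus WT was 0.0664 and that of Pdk3 in AromhumH versus AromhumL 0.0712, both past the threshold without it, while Dlat (0.047) and Pdp1 (0.0434) stayed called in AromhumH versus AromhumL. Arrays correlated best with their own number in 4 of 24 checks. A weak shared batch need not give the best match, so what the number stands for stays unknown. Dim probes such as Pfkfb3, near the detection level, carry the least certain values.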
